A study of Mus musculus with 2 samples.

Results

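The cells described here were droplets (barcodes) of mouse testis single-cell RNA libraries, chosen by marker counts meant to find early meiotic prophase, the leptotene to zygotene stages. A barcode was a member with at least 2000 UMIs (unique molecular identifiers, each standing for 1 captured transcript), at most 10% mitochondrial UMIs and at most 2 UMIs of Piwil1, a pachytene gene. It also needed UMIs of at least 4 of 10 early meiotic genes, which had to make up at least 0.05% of its UMIs and to match or exceed the summed UMIs of 10 spermatogonial and preleptotene genes. The early meiotic set was Prdm9, Dmc1, Meiob, Meioc, Rec8, Scml2, Smc1b, Ugt8a, Syce2 and Tex15. The other set was Dmrt1, Kit, Stra8, Sohlh1, Uchl1, Crabp1, Nanos3, Dnmt3b, Esx1 and Rhox13. The rule found 1762 members among 17408 control barcodes and 1882 among 20601 conditional knockout (cKO) barcodes, 3644 of 38009 in all. The measured values of those genes chose the members, so their levels are given as a description.

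Whole testes were dissociated with collagenase and trypsin and put through a droplet kit that counts transcripts from their 3′ ends, with 1 library for each genotype. The control genotype was Dot1L fl/+ without Cre, that is, 1 floxed and 1 wild-type allele. The cKO genotype was Dot1L fl/delta with Ddx4-Cre, so every cell of that testis carried 1 deleted allele and Cre was directed to germ cells by the Ddx4 promoter. DOT1L is a histone H3 methyltransferase. The labels give neither an age nor the number of animals per library. Because each genotype had 1 library, every difference is between a pair of libraries with no replicate check, and no test was made. The 95% intervals are exact and cover counting error only. Fewer cells of a kind and less RNA per cell can both lower a pooled level and cannot be told apart in it.

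Leptotene and zygotene are the opening stages of meiotic prophase. In leptotene, chromosomes condense along protein axes and double-strand breaks are made by SPO11 at sites that PRDM9 marks. In zygotene, strand exchange proteins such as DMC1 pair homologous chromosomes, and SYCP1 begins to zip the axes together into the synaptonemal complex. STRA8 and its partners switch this program on as spermatogonia leave mitosis. After full pairing, in pachytene, the sex chromosomes are silenced.

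The promoters of the early meiotic set are shown because STRA8 is known to bind a short motif, CNCCTCAG, near the start of genes of this program. RefSeq promoters (build GRCm38.p6, 250 bases before to 50 bases after each gene's start) were found for 8 of the 10 genes, and 3 of them held the motif on either strand in at least 1 promoter. Over all 27025 genes with a promoter in the table the share was 9.12%, and over all 32851 promoters it was 7.94%. The 100 bases just before the start are given 5′ to 3′ for the 3 genes with a match and for Dmc1, which had none. Capitals mark the match.
Prdm9, at chr17:15564355-15564454 on the minus strand: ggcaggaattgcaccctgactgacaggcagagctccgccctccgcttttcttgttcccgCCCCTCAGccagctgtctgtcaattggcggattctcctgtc
Ugt8a, at chr3:125938653-125938752 on the minus strand: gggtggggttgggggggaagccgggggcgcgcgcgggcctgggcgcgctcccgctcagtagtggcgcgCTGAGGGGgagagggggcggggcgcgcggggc
Syce2, at chr8:84872158-84872257 on the plus strand: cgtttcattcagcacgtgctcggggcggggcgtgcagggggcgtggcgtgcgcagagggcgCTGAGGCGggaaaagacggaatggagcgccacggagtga
Dmc1, at chr15:79605110-79605209 on the minus strand: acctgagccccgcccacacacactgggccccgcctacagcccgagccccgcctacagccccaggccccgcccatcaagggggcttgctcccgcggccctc
The matches shown began 41 bases before the start in Prdm9, 32 in Ugt8a and 39 in Syce2. The Prdm9 promoter held a second match 14 bases after the start, outside the stretch shown. In Prdm9 both were on the gene's own strand, and in Ugt8a and Syce2 on the other. A match describes these letters only, since no binding was measured.

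The name of the class was checked against 6 of its markers, Prdm9, Dmc1, Meiob, Meioc, Scml2 and Ugt8a, and most members went against it. Of the control members, 472 had a UMI of none of the 6 and 606 of only 1. In the cKO library the numbers were 342 and 449. Axis gene levels changed abruptly between 2 and 3 markers. The median summed level of 4 chromosome axis and synapsis genes, Sycp1, Sycp2, Sycp3 and Hormad1, was 304 CPM (a gene's UMIs in every 1000000 UMIs of a barcode or, when pooled, a class) in control members with 1 marker, 556 in those with 2 and 4718 in those with 3. In the cKO library it was 330, 858 and 5920 CPM. The median of Acrv1 and Spaca1, genes of the acrosome that forms in spermatids, went the other way, and in the cKO library mainly between 1 and 2 markers. It was 1107, 297 and 59.5 CPM at 1, 2 and 3 markers in the control and 1220, 205 and 165 CPM in the cKO library. Median UMIs per barcode were 20324 at 2 and 8490.5 at 3 markers in the control library, and 12048.5 and 5820 in the cKO library.

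**Figure D1:**
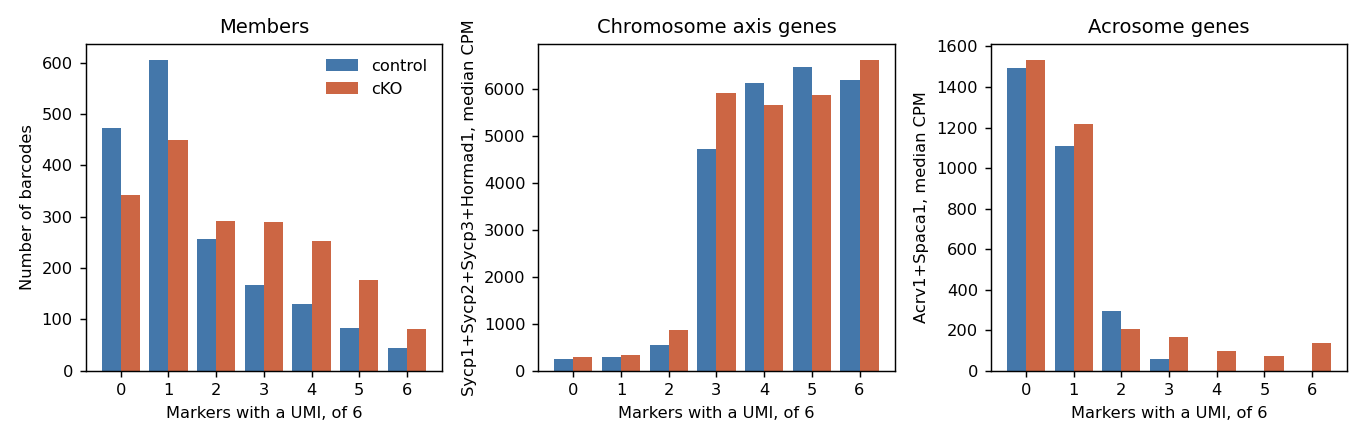
Members by the number of the 6 markers with a UMI, in the control and cKO libraries: number of barcodes (left), median summed CPM of 4 axis and synapsis genes (middle) and of 2 acrosome genes (right). Axis genes go from 556 and 858 CPM at 2 markers to 4718 and 5920 CPM at 3.

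Members were therefore described apart, as marker-rich (3 or more of the 6) and marker-poor (2 or fewer). This division was chosen after the data were seen. Marker-rich members numbered 427 in the control library, 24.2% of its members (22.2 to 26.3%), and 799 in the cKO library, 42.5% (40.2 to 44.7%). They held a median of 6533 and 5870 UMIs, with 5.98% and 6.12% mitochondrial UMIs. Their median axis level was 5767 CPM in control and 6012 CPM in cKO barcodes. Marker-poor members numbered 1335 and 1083, held a median of 21387 and 19786 UMIs, and had 0.541% and 0.780% mitochondrial UMIs. Their median axis level was 305 and 362 CPM, and their median Acrv1 and Spaca1 level 1181 and 1129 CPM.

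The marker-poor members entered mainly through Smc1b, a meiotic cohesin, Syce2, a central element protein, Tex15 and Rec8. These 4 genes gave 94.4% of their early meiotic UMIs in control and 91.0% in cKO barcodes, against 63.0% and 63.9% in marker-rich members. That share follows in part from the rule and the division, which together leave few other genes to count. The rule's thresholds cut through the marker-poor range. Control barcodes with exactly 4 early meiotic genes, just inside, had a median axis level of 295 CPM and an Acrv1 and Spaca1 level of 1222 CPM, and those with 3, just outside, 238 and 876 CPM. The 15 genes that led all control members over spermatogonia and early pachytene barcodes were all higher in the marker-poor than in the marker-rich members, but marker-rich barcodes gave only 11.3% of the UMIs by which those genes were chosen. Among them were Spata45 with 1132 against 239 CPM, Tex36 with 725 against 183 CPM and Fam24a with 722 against 172 CPM. Because of their axis, Acrv1 and Spaca1 levels, genes that the rule did not use, the marker-poor members are not called leptotene or zygotene cells here.

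The share of members was close in the libraries as counted, differed at equal depth, and differed when the classes were split. Among barcodes within the UMI and mitochondrial limits, 8758 control and 9801 cKO, members made up 20.1% (19.28 to 20.97%) and 19.2% (18.43 to 19.996%). Marker-rich members made up 4.88% (4.43 to 5.35%) of control and 8.15% (7.62 to 8.71%) of cKO barcodes. Marker-poor members made up 15.2% (14.5 to 16.0%) and 11.0% (10.4 to 11.7%). The intervals of the marker-rich share did not overlap, and neither did those of the marker-poor share, which went the opposite way as counted. To compare at 1 depth, barcodes with 5000 or more UMIs were thinned to 5000, which left out 2196 control and 3276 cKO barcodes. The share of all members was then 7.60% (6.97 to 8.27%) in control and 11.1% (10.4 to 11.9%) in cKO barcodes, intervals that did not overlap, against 24.2% and 23.1% of the same barcodes unthinned. The marker-rich share was 3.38% (2.96 to 3.85%) and 5.93% (5.37 to 6.53%), against 4.85% and 7.92% of the same barcodes unthinned. Thinned members numbered 499 of 6562 control and 727 of 6525 cKO barcodes, with 222 and 387 of them marker-rich. By these numbers the remaining, marker-poor members were the larger share in the cKO library at this depth, the reverse of the order as counted. No interval was made for that share. The rule and the division were applied again to the thinned counts. Thinned marker-poor members may therefore include barcodes that were marker-rich before thinning. Barcodes of the spermatogonial rule made up 0.845% (0.664 to 1.06%) and 1.20% (0.998 to 1.44%), with intervals that overlapped. Those of the early pachytene rule made up 5.58% (5.11 to 6.09%) and 6.96% (6.46 to 7.48%), with intervals that did not.

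**Figure D2:**
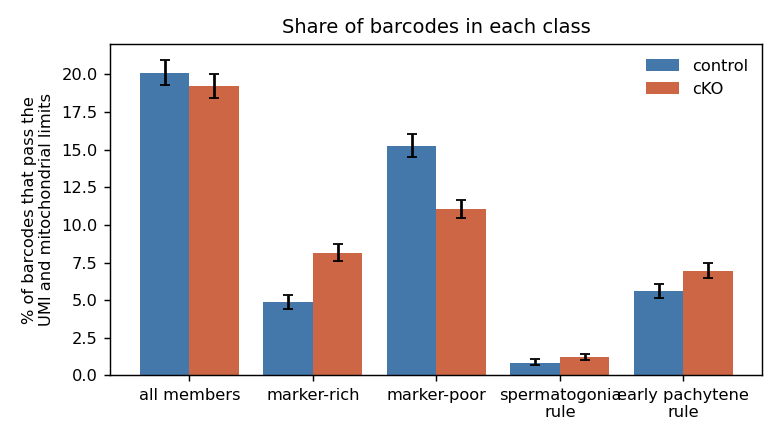
Share of barcodes in each class, in % of the barcodes within the UMI and mitochondrial limits, for the control and cKO libraries; bars start at 0 and error bars are exact 95% binomial intervals. All members are near 20% in both, while the marker-rich share is 4.88% in control and 8.15% in cKO barcodes.

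Other cells, free RNA and doublets were measured within the class. The 12 spermatid markers summed to 24650 CPM in control and 20155 CPM in cKO marker-rich members, and to 24877 and 13219 CPM in macrophage barcodes, which should not make them. Free RNA estimated from those barcodes made 38.2% of control and 30.4% of cKO marker-rich UMIs when macrophage markers were asked to reach 0.1% of UMIs, the looser limit. At the stricter limit of 1%, used for macrophage barcodes in the text, it made 12.4% and 11.9%. The levels and shares given were not corrected for it. Sertoli markers summed to 113 CPM in control and 196 CPM in cKO marker-rich members. Of 6 measured genes 6 were over 1.5-fold higher in the cKO library, beside 8.94% of all measured genes. Leydig markers summed to 17.7 and 153 CPM, with 6 marker-rich cKO barcodes and no control barcode holding 10 or more of their UMIs. Macrophage markers summed to 94.5 and 20.6 CPM, with 2 such barcodes in each library. A doublet caller marked 34 control and 86 cKO marker-rich barcodes. It caught 49.2% and 51.3% of simulated doublets, so others remained. The libraries shared 102 barcode sequences, of which 1 was a member in both.

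Detection of the 6 markers is given as a description, since 3 or more of them chose the marker-rich members. Dmc1, the meiotic strand exchange recombinase (chr15:79561497-79605109), had a UMI in 79.2% of marker-rich barcodes in both libraries, in 7.49% and 11.5% of marker-poor barcodes, and in 0 of 17 control and 1 of 84 cKO macrophage barcodes. In spermatogonia barcodes it was seen in 48.6% and 44.1%, and in early pachytene barcodes in 12.3% and 11.4%. The name spermatogonia follows the rule only, whose set also holds preleptotene genes. Of those barcodes 86.5% and 85.6% had a UMI of Sycp3, and 68.9% and 72.9% of Stra8, which the rule used. They may therefore include cells entering meiosis. The macrophage barcodes had a median of 4184 and 3627 UMIs, fewer than the marker-rich ones. By a floor of 3 counts, 0 of 17 allows a share of up to 17.6%, and the exact 95% interval reaches 19.5%. Thinned to 5000 UMIs, Dmc1 was seen in 55.7% and 62.5% of marker-rich and 2.44% and 4.55% of marker-poor barcodes. Meioc, which holds germ cells in the meiotic program (chr11:102663716-102682237), had a UMI in 89.9% and 90.7% of marker-rich barcodes. It was also seen in 45.3% and 48.0% of marker-poor and in 97.1% and 96.2% of early pachytene barcodes. Thinned, the Meioc shares were 75.5% and 77.6% in marker-rich and 13.5% and 17.9% in marker-poor barcodes. In early pachytene barcodes they were 75.3% and 74.7%, so Meioc does not set the marker-rich members apart from these. Scml2 had a UMI in 82.9% and 85.0% of marker-rich and in 82.4% and 67.8% of spermatogonia barcodes. Thinned, its shares were 65.7% and 70.4% against 61.2% and 50.5%. Meiob was seen in 65.8% and 61.7% of marker-rich and 62.0% and 56.9% of early pachytene barcodes. Thinned, its shares were 54.4% and 51.3% against 25.1% and 24.1%. Prdm9, the methyltransferase that places recombination sites (chr17:15543079-15564354), had a UMI in 37.0% and 40.1% of marker-rich barcodes. For Prdm9 the marker-poor shares were 1.498% and 2.40%.

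Pooled over marker-rich barcodes, the early meiotic genes stood at near levels in the libraries. Dmc1 was at 202 CPM in control and 240 in cKO barcodes, a log2 ratio of cKO over control of 0.25 (0.13 to 0.37). Prdm9 was at 71.4 and 80.7 CPM, a log2 ratio of 0.18 (-0.03 to 0.38). Meioc was at 283 and 300 CPM, 0.08 (-0.02 to 0.19) as log2. Scml2, an X-linked Polycomb protein of germ cells (chrX:161117193-161258213), was at 245 and 272 CPM. Ugt8a, a glycolipid enzyme, was at 81.3 and 102 CPM. Meiob, which binds single-stranded DNA with SPATA22 at recombination sites (chr17:24804289-24839788), was the lowest of the 10 as a ratio, at 208 and 176 CPM, log2 -0.24 (-0.37 to -0.11). Of the 10 early meiotic genes, 0 were over 1.5-fold apart in either direction, and the 9 measured genes of the spermatogonial and preleptotene set also gave 0. The corresponding share over all measured genes was 13.8%. All of these genes were used to choose the members.

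Dot1l itself was lower in the cKO marker-rich members. Its gene lies on the plus strand of chr10:80755206-80795461, and its 342 control UMIs made 80.6 CPM and its 270 cKO UMIs made 38.8 CPM. The log2 ratio was -1.05 (-1.29 to -0.82), and -0.62 with early meiotic genes at 0.1% of UMIs or more. A UMI of Dot1l was found in 41.7% of control and 27.0% of cKO marker-rich barcodes, and in 3 of 17 and 4 of 84 macrophage barcodes. In marker-poor members the shares were 60.1% and 15.2%. Thinned to 5000 UMIs the marker-rich shares were 29.9% and 19.1%, and the marker-poor shares 21.5% and 5.45%. In spermatogonia barcodes the level was 69.1 and 34.2 CPM, log2 -1.01 (-1.63 to -0.41). In early pachytene barcodes it was 59.1 and 55.0 CPM, log2 -0.10 (-0.23 to 0.03), an interval that lies apart from that of the marker-rich members. In marker-poor members it was 53.5 and 8.40 CPM, log2 -2.67 (-2.89 to -2.46). The difference was thus widest among the marker-poor members and narrowest in early pachytene, of these 4 classes. Counting from the 3′ end can also read transcripts of a deleted allele. The labels do not say which exons are floxed, so these counts do not measure the deletion.

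**Figure D3:**
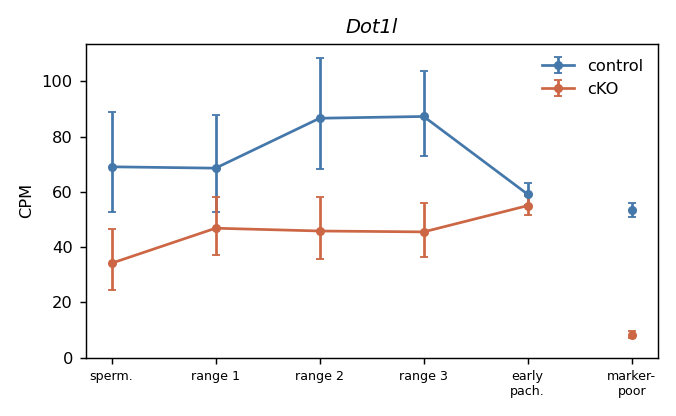
Dot1l level in CPM by class in the control and cKO libraries, with exact 95% Poisson intervals; the line joins spermatogonia, 3 ranges of marker-rich members and early pachytene barcodes, and the marker-poor members stand apart at the right. The libraries nearly meet in early pachytene (59.1 and 55.0 CPM) and are farthest apart in the marker-poor members (53.5 and 8.40 CPM).

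Across all genes the pooled members and the marker-rich members gave different pictures. Genes were counted as measured from a sum of 50 UMIs over both libraries on. Among all members 17531 genes were measured, with a median log2 ratio of 0.24, and 36.8% were over 1.5-fold apart, 31% of all being higher and 5.87% lower in the cKO library. Among marker-rich members 12740 genes were measured, with a median of 0.01, and 8.94% were higher and 4.81% lower by that measure. Those shares are the background for each list count of marker-rich members given here. Among marker-poor members 29.6% of 16288 genes were over 1.5-fold apart, with 24.2% higher and 5.39% lower. For the classes beside them the shares were 17.1% of 7009 genes (11% higher, 6.16% lower) in spermatogonia, 14% of 13355 (11.1% higher, 2.88% lower) in early pachytene and 29.9% of 1390 (19.4% higher) in macrophage barcodes. Marker-rich barcodes gave 11.3% of the control and 23.0% of the cKO members' UMIs. The 11 measured synaptonemal complex and axis genes had a median log2 ratio of 0.70 in all members, with 6 over 1.5-fold higher, and 0.09 with 0 over 1.5-fold in marker-rich members.

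Axis and synapsis genes were at near levels in the marker-rich members. Sycp1, the transverse filament of the synaptonemal complex, was at 1394 CPM in control and 1530 CPM in cKO barcodes, log2 0.13 (0.09 to 0.18). Sycp3, of the lateral element, was at 1292 and 1421 CPM, log2 0.14 (0.09 to 0.18). Hormad1, which marks unsynapsed axes, was at 676 and 565 CPM, log2 -0.26 (-0.33 to -0.19). The widest differences were in Tex12, a central element gene, at 233 and 332 CPM (log2 0.51, 0.40 to 0.62), and in Syce3, at 345 and 277 CPM (log2 -0.32, -0.41 to -0.22). Stag3, a meiotic cohesin, was at 172 and 173 CPM.

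Genes of double-strand break formation had a median log2 ratio of 0.03, and 0 of 8 were over 1.5-fold apart. Spo11, the nuclease that makes the breaks, was at 66.7 and 77.3 CPM, log2 0.21 (0.00 to 0.43). Mei1, which is required for breaks, was at 49.95 and 41.7 CPM, log2 -0.26 (-0.52 to 0.00). Of the 32 genes of strand invasion and crossover, 1 was over 1.5-fold higher and 1 lower, with a median of 0.03. Rpa3, the smallest subunit of the single-strand binding complex RPA, was at 19.1 and 45.0 CPM, log2 1.24 (0.88 to 1.61), while its partners Rpa1 and Rpa2 had log2 ratios of -0.15 and 0.12. Rad54l, a motor protein of strand exchange, was at 18.6 and 10.4 CPM from 79 and 72 UMIs, log2 -0.85 (-1.33 to -0.37). Tex11, an X-linked crossover gene, was at 131 and 176 CPM, log2 0.42 (0.27 to 0.57). All 8 genes of telomere attachment lay within 1.5-fold, with a median of 0.01. They ranged from Majin, at log2 -0.35, to Terb1, at 0.31, both parts of the complex that ties telomeres to the nuclear envelope.

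Of the 9 measured genes in the list of meiotic entry regulators 2 were over 1.5-fold higher and 0 lower. Over all genes the shares were 8.94% and 4.81%. The list's median log2 ratio was 0.11. Ythdc2, an RNA helicase and partner of MEIOC, was at 78.0 CPM in control and 133 CPM in cKO barcodes, log2 0.77 (0.58 to 0.95). Rbmxl2, a testis splicing factor, was at 7.54 and 25.7 CPM, log2 1.77 (1.22 to 2.36). It counts here as a member of the list, and no role of it in meiotic entry was shown by these data. With 4 or more of the 6 markers Ythdc2 was at log2 0.45, within 1.5-fold. Ythdc2 had log2 ratios of 1.31 in marker-poor, 0.74 in spermatogonia and 1.01 in early pachytene barcodes, and Rbmxl2 had 1.41, 1.52 and 1.61. Stra8, which the rule used, was at 159 and 208 CPM. None of 24 genes of premeiotic DNA replication was past 1.5-fold, with a median of 0.10. Prim1, a primase subunit, was at 41.2 and 56.8 CPM, the widest of them at log2 0.46 (0.20 to 0.73) together with Rfc3, a clamp loader subunit, at log2 0.46 (0.14 to 0.79).

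The 13 pachytene onset genes had a median log2 ratio of -0.26, with 0 past 1.5-fold. Psma8, the testis proteasome subunit, was at 118 and 83.0 CPM, log2 -0.50 (-0.68 to -0.33). Tbpl1, a TBP-like factor, was at 452 and 336 CPM, log2 -0.43 (-0.51 to -0.34). This median depended on the choice of barcodes and was 0.35 with 4 or more of the 6 markers and 0.07 with early meiotic genes at 0.1% of UMIs or more. The 14 genes of the piRNA pathway and germ granules had a median of -0.25, with 0 past 1.5-fold higher and 1 lower. That gene was Ddx4, the germ cell RNA helicase whose promoter drives the Cre, at 367 and 195 CPM, log2 -0.92 (-1.02 to -0.81). It had log2 ratios of -0.77 in marker-poor, -0.94 in spermatogonia and -0.66 in early pachytene barcodes. The next lowest, Pld6, the mitochondrial nuclease Zucchini, had -0.45 (-0.92 to 0.02), from 71 and 85 UMIs.

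Chromatin genes were mostly at near levels. Of 20 histone methylation enzymes 1 was past 1.5-fold higher and 0 lower, with a median of -0.02. Suv39h2, a testis-enriched H3 lysine 9 methyltransferase, was at 25.4 and 48.0 CPM, log2 0.92 (0.60 to 1.24), and within 1.5-fold at 0.52 with 4 or more of the 6 markers. Kdm4d, an H3 lysine 9 demethylase, was at 64.6 and 43.3 CPM, log2 -0.58 (-0.82 to -0.33), just inside the 1.5-fold limit. Ezh2, of Polycomb complex 2, was at 146 and 198 CPM, log2 0.43. Among the 11 measured genes of DOT1L and its partners 2 were past 1.5-fold higher and 1, Dot1l, lower. The higher ones, Mllt6 at log2 0.61 (-0.13 to 1.39) and Bcor at 0.60 (-0.16 to 1.40), rested on 22 and 21 control UMIs. Mllt10, the AF10 partner of DOT1L, was at 459 and 414 CPM, log2 -0.15 (-0.23 to -0.07).

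Among 12 genes of sex chromosome silencing 1 was past 1.5-fold higher and 0 lower, with a median of -0.08. H2afx, whose product is phosphorylated at unpaired chromosomes, was at 51.4 and 80.4 CPM, log2 0.65 (0.42 to 0.88), and had 0.70 in marker-poor and 0.81 in early pachytene barcodes. It was within 1.5-fold without barcodes with Piwil1 (0.42), without marked doublets (0.56), with barcodes weighted alike (0.58) and after free RNA was subtracted at the looser limit (0.56), though not at the stricter one (0.64). Mdc1, which spreads that mark, was at 139 and 108 CPM, log2 -0.36 (-0.52 to -0.20). Topbp1 was at 83.9 and 112 CPM, log2 0.42 (0.24 to 0.61).

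Of 11 measured p53 targets and apoptosis genes 0 were past 1.5-fold, with a median of -0.02. Bax was at 70.7 and 66.7 CPM. Of 6 measured spermatogonial genes 0 were past it. Immediate-early and heat shock genes, which respond to tissue dissociation, had 5 of 7 measured genes over 1.5-fold higher and 0 lower. Of all genes in marker-rich members 8.94% were higher and 4.81% lower. Fos had 11 and 75 UMIs, 2.59 and 10.8 CPM, log2 2.06 (1.14 to 3.12), and Junb had 5 and 49 UMIs, log2 2.58 (1.26 to 4.27). Of the same list, 5 of 6 measured genes were past 1.5-fold higher in marker-poor barcodes, beside 24.2% of all genes, and 5 of 7 in early pachytene barcodes, beside 11.1%. In macrophage barcodes 5 of 10 were higher and 1 lower, beside 19.4% higher, and in spermatogonia barcodes 0 of 3 were higher, beside 11%. The median of the list in marker-rich members was 0.90, but 0.22 without barcodes with 10 or more UMIs of a somatic marker list, 0.38 without marked doublets and 0.0555 over genes with 200 or more UMIs. The part of dissociation in the other differences was not tested.

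**Figure D4:**
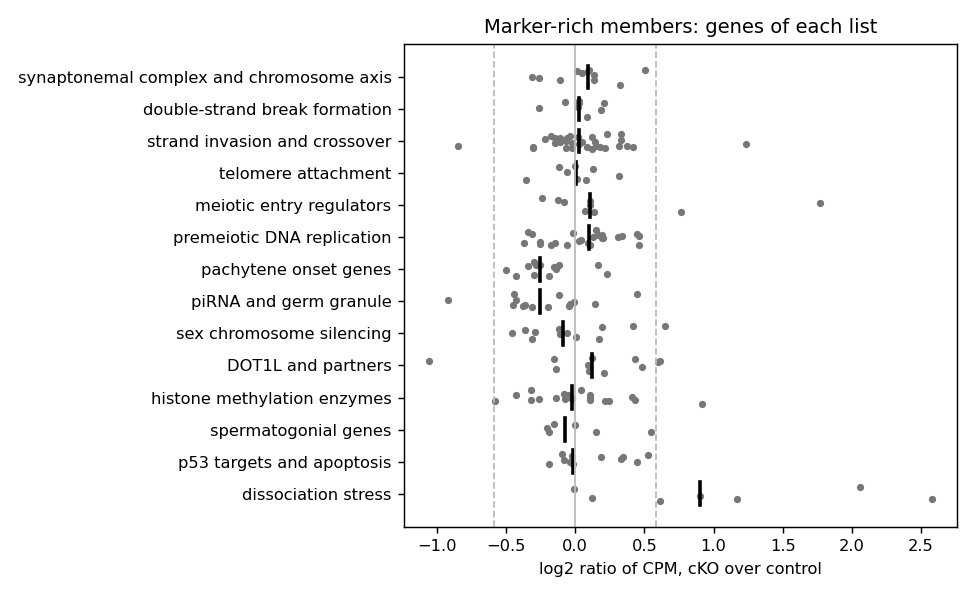
Log2 ratio of CPM, cKO over control, in marker-rich members for each measured gene (points, spread vertically at random) of 14 lists, with the list's median as a black bar and 1.5-fold as dashed lines. Most points lie inside the dashed lines, and dissociation stress is the list whose median (0.90) lies beyond them.

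The genes farthest apart in the marker-rich members were mostly apart in other classes as well. Of the 12 highest, all 12 were past 1.5-fold the same way in marker-poor and in early pachytene barcodes, as were the 5 measured in spermatogonia. Of all genes 24.2%, 11.1% and 11% were higher in those classes. Over all members 6 of these 12 genes, Lcn2, Nupr1l, Pgp, Scand1 and Tssk6 among them, were also among the 12 highest, beside Akirin1, Glrx5, Hal, Rabgef1, Rala and Tusc2. Scand1, a SCAN domain gene, was at 4.24 CPM in control and 186 CPM in cKO barcodes, log2 5.45 (4.79 to 6.21), with 5.33, 4.58 and 5.53 in marker-poor, spermatogonia and early pachytene barcodes. Pgp, a phosphoglycolate phosphatase, was at 126 and 978 CPM, log2 2.96 (2.83 to 3.09). Tssk6, a spermatid kinase, was at 17.0 and 243 CPM, log2 3.84, and Nupr1l had log2 3.24. Ankrd9 had 3.01 and Gstm1, a glutathione transferase, 3.28. Macrophage barcodes differed the same way for the 3 of these genes given next, but free RNA of germ cells was not removed from them. There Pgp had log2 2.56 (1.40 to 4.03), Tssk6 had 1 control and 77 cKO UMIs, and Scand1 had 0 and 72. Tssk6 is among the 12 spermatid markers by which free RNA in these barcodes was measured. The part of free RNA in these 3 differences was not tested. Both files list the same genes, but the Cell Ranger version was read from the control file only. With 1 library for each genotype, a difference in how the libraries were made or counted and a difference between genotypes cannot be told apart in these ratios.

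The other 5 of the 12 highest had 40% or more of their cKO UMIs in a single barcode. They were Cyp11a1 and Cyp17a1, enzymes of Leydig cell steroid synthesis, Agt, Akr1cl and Lcn2. Leydig markers were past 1.5-fold higher for 5 of 5 measured genes in marker-poor and 5 of 6 in early pachytene barcodes. Of all genes 24.2% and 11.1% were higher in those classes. The part of Leydig RNA in the agreement between classes was not tested. Cyp17a1 had 2 control and 217 cKO UMIs, of which 42.9% were in 1 barcode. Agt, the angiotensin precursor, had 0 and 149 UMIs and was at least 30.3-fold higher against a floor of 3 counts in the control library.

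Of the 12 lowest, 9 of 12 measured were past 1.5-fold the same way in marker-poor, 5 of 6 in spermatogonia and 8 of 11 in early pachytene barcodes. Of all genes 5.39%, 6.16% and 2.88% were lower in those classes. Hist2h2aa1 was at 56.8 and 1.58 CPM, log2 -5.17 (-6.19 to -4.30), and Hist1h2ap, a replication-type histone, at 116 and 12.5 CPM, log2 -3.21. Phb, prohibitin, was at 40.1 and 8.92 CPM, log2 -2.17. After free RNA was subtracted its ratio was 0.24 at the looser limit and -2.08 at the stricter one. Kpna2, a nuclear import factor, was at 123 and 37.0 CPM, log2 -1.73. The 3′ ends of 7 of these 12 shared 50% or more of their 40-base words with transcripts of other genes, among them 100% in Hist2h2aa1, Hist1h2ap and Dynlt1b, 98.3% in Kpna2, 90.0% in Bloc1s1 and 83.9% in Rsph3a. Their counts are uncertain for that reason. Over all members the 12 lowest held 6 of these 12, among them Bloc1s1, Dynlt1b, Hist2h2aa1, Kpna2 and Phb, with Dot1l, Gria4, H2al1a, H2al1g, Hist2h2ac and Pcdha1. Lyz2, at log2 -3.07, had 72.2% of its 133 control UMIs in 1 barcode.

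By the same kind of rule, 15 genes led the marker-rich members over spermatogonia and early pachytene barcodes in the control library, of which 8 were higher still in the marker-poor members. The 7 that were not were Prss50, Rad51ap2, Pbx3, Tafa1, Stxbp5l, H2-D1 and Maoa. Prss50, a testis serine protease, was at 137 CPM in control marker-rich members against 4.43 CPM in early pachytene and 1.15 CPM in spermatogonia barcodes. In the cKO library it was at 194 CPM, a log2 ratio of 0.51. Rad51ap2 was at 139 CPM against 6.30 and 1.15 CPM, and at 132 CPM in the cKO library. Pbx3, a homeobox factor, was at 335 CPM against 13.7 and 16.1 CPM, and at 494 CPM in the cKO library. Since the cells were chosen by expression, these levels are a description.

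Marker-rich members were ordered by their share of pachytene onset UMIs among those of the replication and pachytene onset lists, and cut into 3 ranges of equal size over both libraries. Barcodes with Acrv1 and Spaca1 at 0.05% of UMIs or more were left out, which kept 393 control and 705 cKO barcodes. The ranges are not types, and 28 control and 38 cKO barcodes lay within 2 percentage points of the upper edge of the middle range. The first range held 29.5% of control (25.05 to 34.3%) and 35.5% of cKO (31.9 to 39.1%) barcodes, the second 34.4% and 32.8%, and the third 36.1% (31.4 to 41.1%) and 31.8% (28.3 to 35.4%). The intervals of each range overlapped between the libraries.

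Between the first and the third range, the genes named here, which the ordering did not use, differed in the same direction in both libraries, except Dot1l. Stra8 was at 446, 291 and 5.37 CPM over the ranges in the control and at 469, 332 and 19.1 CPM in the cKO library. Prdm9 was at 138, 168 and 11.4 CPM in the control and at 163, 134 and 13.5 CPM in the cKO library. Dmc1 was at 306, 420 and 109 CPM in the control and 367, 405 and 150 CPM in the cKO library. Thus Stra8, Prdm9 and Dmc1 were low in the third range. Meiob, at 99.6, 310.1 and 310.2 CPM in the control, was high there, and so it was in the cKO library, at 90.8, 216 and 320 CPM. Sycp3 was at 700, 1748 and 1969 CPM in the control and 1018, 1749 and 2300 CPM in the cKO library. Hormad1 was at 350, 871 and 1044 CPM and at 406, 581 and 1007 CPM. Dot1l was at 68.6, 86.7 and 87.3 CPM in the control and 46.9, 45.9 and 45.5 CPM in the cKO library, so that its log2 ratio was -0.55 (-1.05 to -0.05), -0.92 (-1.41 to -0.43) and -0.94 (-1.346 to -0.54).

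**Figure D5:**
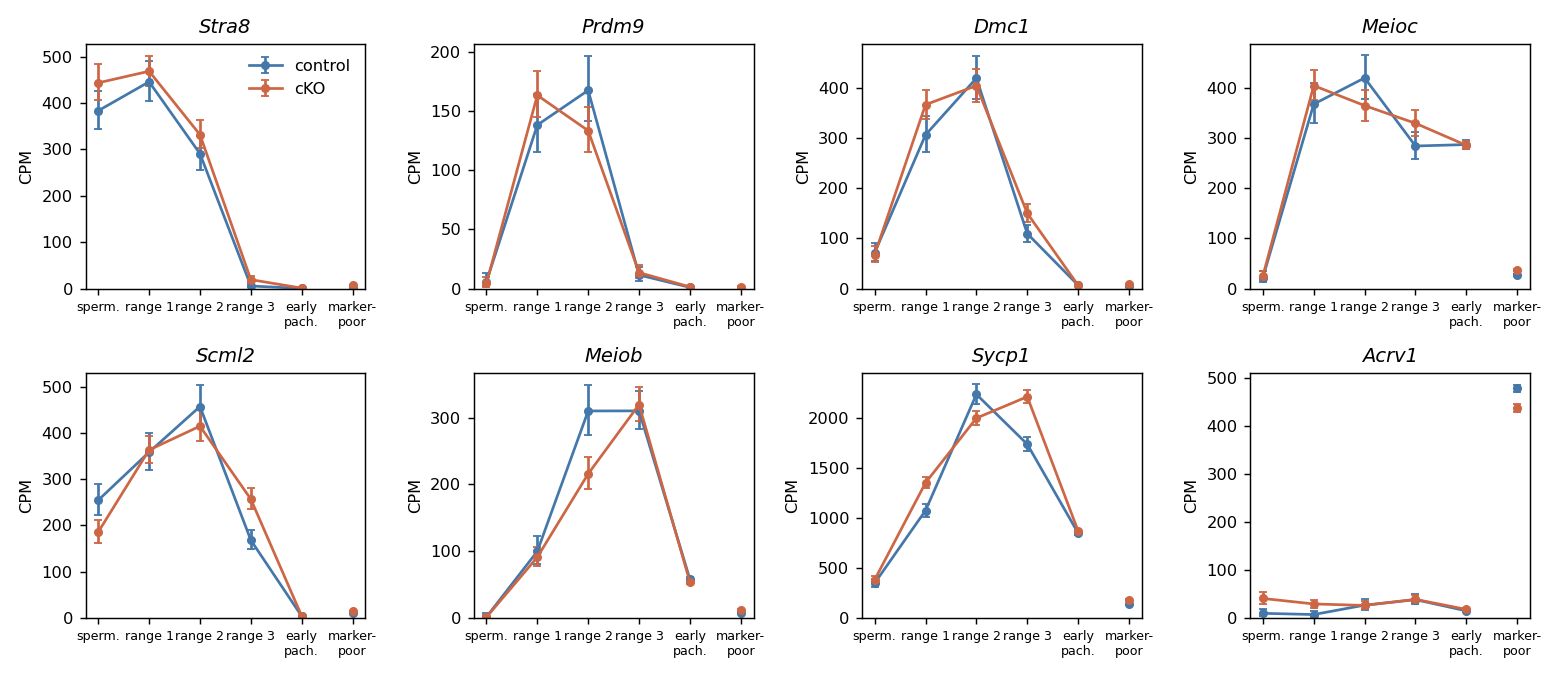
Level in CPM of 8 genes in spermatogonia barcodes, 3 ranges of marker-rich members, early pachytene barcodes and, unjoined, marker-poor members, in the control and cKO libraries, with exact 95% Poisson intervals. Stra8, Prdm9 and Dmc1 are low by the third range, Meiob is high there, and Acrv1 is highest in the marker-poor members, at 477.5 and 437 CPM.

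The X chromosome gave a falling share of the UMIs along the same order. In the control library X genes made 2.63%, 2.38% and 1.01% of X and autosomal UMIs in the 3 ranges, and 0.0948% in early pachytene barcodes. In the cKO library the shares were 2.52%, 2.29%, 1.34% and 0.151%. Spermatogonia barcodes were at 2.16% and 2.01%, and marker-poor members at 1.18% and 1.21%. In the first and second ranges the cKO share was thus the lower one, and in the third it was the higher one, 1.34% (1.32 to 1.35%) against 1.01% (0.991 to 1.02%). Median UMIs in the third range were 7596.5 in control and 6397.5 in cKO barcodes. In that range the stage genes Stra8 and Dmc1 were also higher in the cKO library, at 19.1 against 5.37 CPM and 150 against 109 CPM, and the part of stage in the X share was not tested. Over the 459 measured X genes of all marker-rich members the median log2 ratio was 0.15, with 60 past 1.5-fold higher and 16 lower, beside 8.94% and 4.81% of all genes. In early pachytene barcodes the median of 178 measured X genes was 0.78, with 112 higher and 2 lower, beside 11.1% and 2.88% of all genes. In spermatogonia barcodes the median of 215 was -0.12, with 6 higher and 24 lower, beside 11% and 6.16%. X UMIs were few in early pachytene barcodes, at the shares of 0.0948% and 0.151%. There Sertoli markers summed to 61.1 CPM in control and 113 CPM in cKO barcodes. Leydig markers summed to 21.6 and 101 CPM, and macrophage markers to 7.26 and 24.6 CPM. The part of somatic RNA in the X share and X ratios was not tested.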

How the data were processed

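The authors deposited whole-number UMI counts. The header of the control file, the only one read for this, names Cell Ranger 7.0.0. The submitters' processing notes name the build mm10 and Seurat 4.1.0. No cell annotation was used. Each library had a barcode minimum of 500 UMIs. The control library held 155487418 UMIs and the cKO library 156518838. The members and gene lists were chosen with earlier results of these data known. UMIs were summed per class and library and divided by their total (CPM), and log2 ratios carry exact conditional binomial intervals, shares Clopper-Pearson intervals, at 95%. UMIs of a barcode are not independent draws across cells. Called means past 1.5-fold among genes with 50 or more UMIs, a rule of size. Free RNA was estimated from spermatid markers in macrophage barcodes and the smallest barcodes. Alternatives changed the rule's UMI minimum, number and share of early meiotic genes and Piwil1 limit, the scaling, the UMI minimum per gene, the weights, doublets and free RNA. The mitochondrial limit and the comparison with the spermatogonial set were not varied. The calculation was tested on simulated data.

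Spermatogonia barcodes needed 4 or more genes of the second set, and early pachytene barcodes Piwil1 at 0.02% or more of UMIs and Ccna1 at 1 UMI or none. Macrophage barcodes had 4 or more markers at 1% of UMIs or more and no germ cell class. That limit was set after the first one (0.1%) let in barcodes rich in germ cell genes. Named genes, applied to the marker-rich members as well as to all members, were the 12 highest and 12 lowest log2 ratios with 100 UMIs and 20 CPM in the higher library, passing over predicted, mitochondrial, hemoglobin and rule genes (4 higher and 5 lower in the marker-rich members), up to 4 per list by absolute log2 ratio, and 15 leading genes. Others in a list are named as its best-known members, chosen after their values were seen. Doublets were marked with Scrublet in scanpy 1.11.5 and kept. Positions are from GENCODE vM21 (GRCm38). Python 3.11.15, numpy 2.4.6 and scipy 1.17.1 were used. A few genes that the rule names are not reported here.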

Additional observations from a re-analysis of the deposited data

How the results depend on the processing

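No paired analysis was possible because each genotype had 1 library. No setting shows what varies between animals, and depth limits genes with few UMIs. The settings on 4 or more markers, low Acrv1 and Spaca1, somatic UMIs and stricter macrophages were chosen after seeing the data. Shares and Dot1l were judged against counting error, and counts of genes against a factor of 1.5. List medians were judged against an interval of the median over the list's genes, which is wide for short lists. By it the dissociation stress median in marker-rich members, 0.0555 against 0.90, counted as unmoved. Of 538 values of shares, gene counts, Dot1l and list medians, 475 stayed within these limits, 62 moved and 1 reversed. Some could not change, such as Dot1l under another UMI minimum per gene, and counted as within the limits. Named genes were judged apart, against counting error. Of their 1331 values in all members 376 moved and 6 reversed, and of 1447 in marker-rich members 180 moved and 1 reversed. The causes were not tested.

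For all members, the control and cKO shares were 24.2% and 23.1% with 5000 or more UMIs, 4.98% and 7.36% with 6 or more early meiotic genes, 9.34% and 10.8% with those genes at 0.1% of UMIs, 16.1% and 16.3% without Piwil1, and 18.4% in the cKO library without marked doublets. The 5428 genes higher became 2136 with 6 genes, 3471 with median-of-ratios scaling, 8552 with a minimum of 1 UMI in each library and 2206 with the 3 ranges weighted alike. The 1029 genes lower became 3406 at 0.1%, 2227 with median-of-ratios scaling, 640 with 200 UMIs, 2414 with 1 UMI and 1970 with barcodes weighted alike. Dot1l, at -1.88, became -1.29 with 6 genes, -0.55 at 0.1%, -2.12 with median-of-ratios scaling, -1.16 with barcodes weighted alike and -1.70 with ranges weighted alike. List medians with 6 genes, at 0.1% and with ranges weighted alike were 0.43, 0.97 and 0.13 for strand invasion, 0.39, 1.002 and 0.028 for replication, and 0.32, 0.82 and 0.11 for histone methylation, which had 0.35 with median-of-ratios scaling. With ranges weighted alike they were -0.0605 for double-strand breaks, 0.23 for meiotic entry, 0.21 for DOT1L partners and -0.0063, a reversal, for sex chromosome silencing. Pachytene onset had -0.25 at 0.1% and -0.29 with median-of-ratios scaling. Genes that reversed with ranges weighted alike were Bax (-0.0101), Mei1 (-0.38), Mei4 (-0.15), Suv39h1 (-0.13), Terb2 (-0.0658) and Zcwpw1 (-0.0555).

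For marker-rich members the shares were 4.08% and 6.81% with 6 genes, 4.19% and 7.25% without Piwil1, 2.96% and 5.204% with 4 or more markers, and 7.19% in the cKO library with low Acrv1 and Spaca1, so the cKO share was the higher one in each. The 1139 genes higher became 487 with 200 UMIs and 3348 with 1 UMI. The 613 lower became 175, 3364 and, after free RNA was subtracted at the looser macrophage limit (0.1%), 1380, but 828 at the stricter one (1%). Dot1l became -0.62 at 0.1%, -0.77 with 4 markers and -0.76 with barcodes weighted alike. The pachytene onset median became -0.0738 with 6 genes, 0.0718 at 0.1%, -0.0405 without Piwil1 and 0.35 with 4 markers. With 4 markers meiotic entry was -0.12, replication -0.16 and histone methylation -0.21. With free RNA subtracted at the looser limit strand invasion was -0.0826, histone methylation -0.19 and Phb, a reversal, 0.24. At the stricter limit they were 0.0266, -0.0392 and -2.08, each within the interval of the value without subtraction.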
